A study of Mus musculus with 4 samples.

Results

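Bcl11a and 9 subunits of NuRD, the nucleosome remodeling and deacetylase complex, were followed across 4 arrays of mouse blood progenitors. The genes were taken by symbol: *Bcl11a*, *Chd4*, *Hdac1*, *Hdac2*, *Mta1*, *Mta2*, *Mbd3*, *Rbbp4*, *Rbbp7* and *Gatad2a*. These 10 genes, of 19938 on the array that have probe sets carrying their symbol alone, were measured by 12 of 28853 probe sets, the groups of short DNA probes that read out 1 transcript region. *Hdac1* and *Rbbp7* have 2 probe sets each and the other members have 1.

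Bcl11a is a zinc finger transcription factor that is needed for lymphoid development and that silences fetal globin genes in red cells. It represses genes in part by carrying NuRD to DNA, and an N-terminal peptide of the protein binds the RBBP4 subunit. NuRD joins a nucleosome-remodeling ATPase of the CHD family to the histone deacetylases HDAC1 and HDAC2, which strip acetyl groups from histone tails. MTA proteins hold the deacetylases, RBBP proteins hold histones, and MBD and GATAD2 proteins link the deacetylase part to the ATPase.

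The study asked how loss of Bcl11a alters gene expression in multipotent progenitors (MPPs), which can still form all blood lineages, and in granulocyte-macrophage progenitors (GMPs). The groups were *Bcl11a*-/- MPPs, Bcl11a+/+ (WT) MPPs, *Bcl11a*-/- GMPs and WT GMPs, with 1 array each. The mutant allele lacks the first exon, and because mutant mice do not survive, liver cells of *Bcl11a*-/- or WT fetuses were transferred into B6.SJL recipients that had received 1200 rad. Donor-derived cells were sorted from recipient bone marrow (BM) 4 weeks later according to the sample labels (the methods also mention a later time for chimeras), MPPs as CD150-negative cells of the LSK gate, and cells of one donor genotype were combined for RNA. The labels give B6.SJL as the genetic background of every sample, the strain of the recipients. The sources used here do not give the number of mice in a pool, and all 4 groups had passed through irradiated hosts. With a single array in each group there is no replicate check, so every difference stands without a test or an error.

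Signals are log2 values after RMA, so a difference of 1 is 2-fold. The signals of the probe sets had SDs of 2.10 in *Bcl11a*-/- MPPs, 2.21 in WT MPPs, 2.28 in *Bcl11a*-/- GMPs and 2.30 in WT GMPs, so the arrays were not on one common distribution. The 3109 genes with a mean signal of at least 8, a level that 9 of the 10 members reached, had a median difference of -0.16 between *Bcl11a*-/- and WT MPPs, while the median of all 19938 genes was 0.05. In GMPs these medians were -0.03 and 0.01. Listed markers mostly followed the population labels. In both genotypes 8 measured LSK markers were higher in MPPs than in GMPs, and 9 of 11 GMP markers were lower. *Ly6a*, which encodes the Sca-1 antigen of the LSK gate, was not measured, so these markers do not check the gates. Of 7 mature neutrophil and macrophage markers, *S100a8*, *S100a9*, *Camp* and *Ltf* had signals between 9.22 and 13.06 on the 4 arrays. *Adgre1*, *C1qa* and *Mrc1* stayed below 6. The purity of the sorts was not tested. B lineage markers, 10 of 11 measured, all fell past 1.5-fold in *Bcl11a*-/- cells, with a median difference of -3.04 in MPPs and -0.94 in GMPs. Erythroid markers, 5 of 8 measured, were all higher in *Bcl11a*-/- cells, with a median difference of 0.40 in MPPs and 1.69 in GMPs. Fewer cells of one kind and less RNA per cell cannot be told apart in pooled RNA.

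*Bcl11a* itself had lower signal in the mutant cells of both populations. Its log2 signal was 8.64 in *Bcl11a*-/- MPPs and 9.89 in WT MPPs, a difference of -1.25, or 2.39-fold lower. In GMPs it was 7.77 in *Bcl11a*-/- cells and 8.60 in WT cells, a difference of -0.83, or 1.78-fold lower. The order of the 4 arrays was therefore WT MPPs, then *Bcl11a*-/- MPPs beside WT GMPs, whose signals of 8.64 and 8.60 were close, then *Bcl11a*-/- GMPs. Since probes outside the deleted exon can still read transcript, the probe set is a weak check of the genotype, and the sources used here do not say which exons it covers.

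Among all genes, *Bcl11a* had the 201st lowest difference in MPPs and the 86th lowest in GMPs. It was past 2-fold in MPPs, where 2.92% of all genes differed by more than 2-fold in either direction, and past 1.5-fold but not 2-fold in GMPs, where 3.51% of genes passed 1.5-fold and 0.642% passed 2-fold. Both differences kept their direction and size class under every processing alternative run, between -1.30 and -1.15 in MPPs and between -0.84 and -0.74 in GMPs. B lineage cells are a known site of *Bcl11a* expression. On the 10 measured B lineage markers the median log2 signal was 5.29 in *Bcl11a*-/- MPPs and 7.73 in WT MPPs, with 5 and 0 of the markers below a signal of 5. It was 4.84 in *Bcl11a*-/- GMPs and 5.86 in WT GMPs, with 5 and 1 markers below that level. Some other markers fell in mutant cells too. Of 6 plasmacytoid dendritic cell markers, another site of *Bcl11a* expression, 5 were lower in *Bcl11a*-/- MPPs, with a median difference of -0.76, and 4 were lower in *Bcl11a*-/- GMPs, with a median of -0.27. Of 11 GMP markers, 6 were lower and 5 higher in *Bcl11a*-/- MPPs, with a median difference of -0.50. In *Bcl11a*-/- GMPs 6 were lower and 5 higher too, with a median of -0.003. The lowest in MPPs were the granule protein genes *Elane*, *Prtn3* and *Ctsg* and the GMP marker *Ms4a3*. They differed by -2.68 to -2.25 in MPPs and by -0.17 to 0.07 in GMPs. The part of any of these transcripts in the *Bcl11a* difference was not tested.

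*Bcl11a* also separated the populations. Its signal was higher in MPPs than in GMPs by 0.87 in *Bcl11a*-/- cells, 1.82-fold, and by 1.29 in WT cells, 2.45-fold. In WT cells it passed 2-fold between the populations, where 4.14% of all genes did. In *Bcl11a*-/- cells it passed 1.5-fold but not 2-fold, where 22.7% of genes passed 1.5-fold and 8.18% passed 2-fold. With the 4 arrays quantile normalized anew, the difference in *Bcl11a*-/- cells was 1.08, past 2-fold. These differences use the same 4 arrays as the genotype differences, so they are the same values read in another direction.

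The 250 bases before an annotated start of *Bcl11a* are shown for the gene that was targeted, and those of *Mbd3* as a NuRD member that passed 1.5-fold between populations and for its boxes. The windows are from RefSeq on GRCm38.p6: chr11:24080445-24080694 on the plus strand for *Bcl11a* and chr10:80399532-80399781 on the minus strand for *Mbd3*. The *Bcl11a* window precedes 1 of its starts in RefSeq and lies inside the span of the gene, whose outermost start is further upstream. Each is written along its gene. Capitals mark the GC box GGGCGG and the CCAAT box on either strand, so that they read CCGCCC and ATTGG on the opposite one.
Bcl11a: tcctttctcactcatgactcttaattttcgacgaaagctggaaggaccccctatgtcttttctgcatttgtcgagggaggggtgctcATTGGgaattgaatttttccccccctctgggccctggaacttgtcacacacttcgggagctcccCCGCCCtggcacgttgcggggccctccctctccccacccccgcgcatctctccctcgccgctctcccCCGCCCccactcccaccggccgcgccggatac
Mbd3: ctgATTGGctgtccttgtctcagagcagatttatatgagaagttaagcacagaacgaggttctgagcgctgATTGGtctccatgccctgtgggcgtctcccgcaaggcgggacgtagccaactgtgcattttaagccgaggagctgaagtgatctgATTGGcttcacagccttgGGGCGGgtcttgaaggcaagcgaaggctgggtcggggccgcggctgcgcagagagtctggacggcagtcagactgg
Promoter windows were found for 9 of the 10 members, 11 windows in all, since *Chd4* and *Gatad2a* have 2 each. *Hdac1* was not analysed here. GGGCGG, the box bound by Sp1 family factors, occurred in 11 of the 11 windows, against 57.6% of 10342 windows of genes with a signal of at least 6 on an array and 32.7% of 32851 windows in all. The CCAAT box was found in 6 of the 11 windows, each of a different gene, and *Mbd3* had 3 copies. It is held by 35.0% of windows of genes with a signal of at least 6 and by 33.9% of all windows. TATAAA was found in the *Mbd3* window alone, 1 of 11, against 6.31% of windows of genes with that signal and 12.4% of all windows. TGACCA, the sequence that human BCL11A binds, was in 0 of the 11 windows. It was in 9.75% of windows of genes with that signal and in 11.4% of all windows. The member windows held 12 to 39 CpG dinucleotides, with a median of 23, and the median was 16 over windows of expressed genes and 6 over all windows. A match or its absence describes these letters in this window only.

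**Figure D1:**
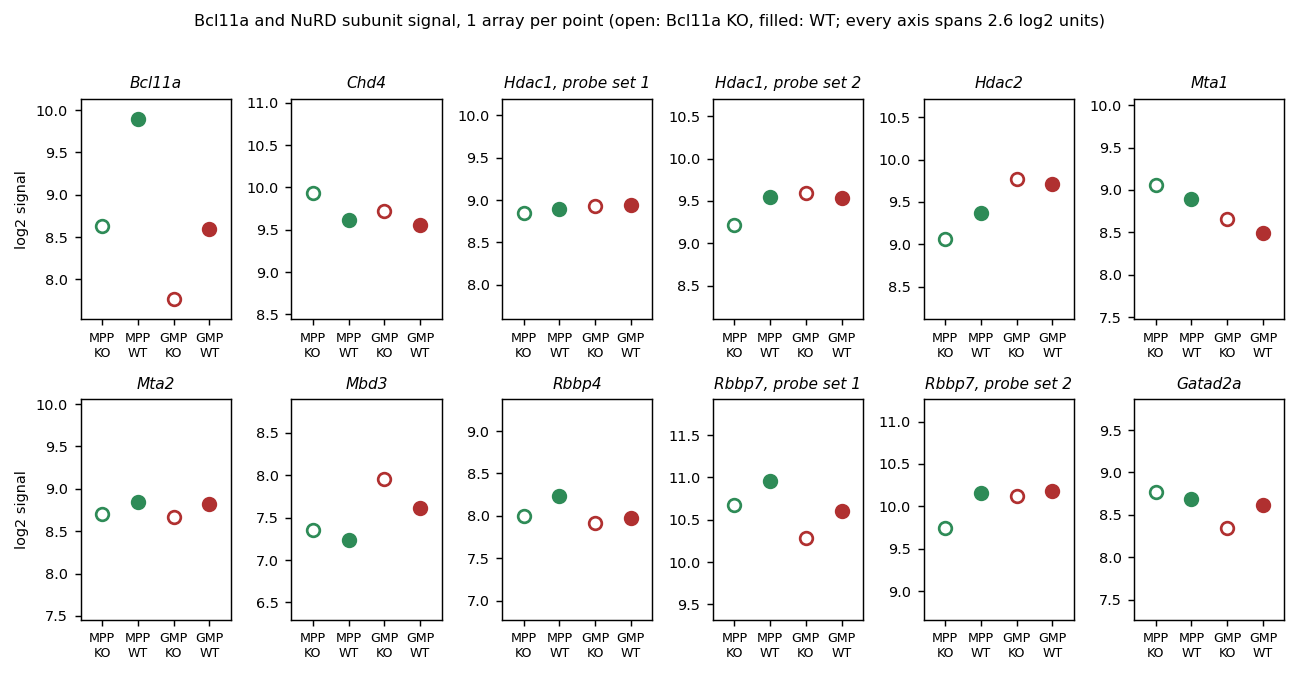
Log2 signal of each probe set of *Bcl11a* and the NuRD members on the 4 arrays, with 1 point per array (green: MPPs, red: GMPs, open: *Bcl11a*-/-, filled: WT), on axes of equal span but different offsets. *Bcl11a*, from 7.77 in *Bcl11a*-/- GMPs to 9.89 in WT MPPs, spans most of its panel, while the NuRD subunits move by much less.

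The NuRD members differed little between genotypes, as most genes did. Of 9 NuRD members, 0 differed by more than 1.5-fold between *Bcl11a*-/- and WT MPPs, where 12.0% of all genes did, and 0 did so in GMPs, where 3.51% of all genes did. With so few members a count of 0 is near these shares and is not particular to NuRD. Their differences ran from -0.35 to 0.32 in MPPs and from -0.26 to 0.34 in GMPs. The central 95% of all genes lay between -0.92 and 0.75 in MPPs and between -0.50 and 0.55 in GMPs, and the NuRD members lay inside it, as nearly all genes do. In MPPs 5 of the 9 were lower and 4 higher, with a median of -0.14, and 44.2% of all genes were lower. In GMPs 4 were lower and 5 higher, with a median of 0.02, and 47.8% of all genes were lower. The exception was *Chd4*, which passed 1.5-fold in MPPs, at 0.65, when the 4 arrays were quantile normalized anew.

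*Chd4* encodes the main remodeling ATPase of NuRD. Its signal was 9.93 in *Bcl11a*-/- MPPs and 9.62 in WT MPPs, and 9.72 in *Bcl11a*-/- GMPs and 9.55 in WT GMPs. It was higher in the mutant cells of both populations, by 0.32 in MPPs, 1.25-fold, and by 0.16 in GMPs. The difference of 0.32 was the highest among NuRD members in MPPs, and 88.7% of the abundant genes lay below it.

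The deacetylases gave somewhat lower signals in mutant MPPs, near the median of abundant genes, and nearly equal signals in GMPs. *Hdac2* was at 9.06 in *Bcl11a*-/- MPPs and 9.37 in WT MPPs, a difference of -0.31, and at 9.77 in *Bcl11a*-/- GMPs and 9.71 in WT GMPs, a difference of 0.06. *Hdac1* had 2 probe sets that did not give the same answer. One read 9.21 in *Bcl11a*-/- MPPs and 9.54 in WT MPPs, and 9.60 in *Bcl11a*-/- GMPs and 9.53 in WT GMPs. The other was flat over all 4 arrays, at 8.84 in *Bcl11a*-/- MPPs, 8.90 in WT MPPs, 8.93 in *Bcl11a*-/- GMPs and 8.94 in WT GMPs. Their differences in MPPs were -0.33 and -0.06. The probe sets are numbered largely in genome order, since 94.3% of neighbouring annotated numbers belong to genes of one chromosome. The first *Hdac1* probe set is numbered between *Tssk3* and *Fam167b*, which flank the gene on chromosome 4, and the flat one between *Crim1* and *Vit* on chromosome 17, where RefSeq places the pseudogene *Hdac1-ps*. The sequence of these probes was not used here, so what the flat probe set reads is uncertain. Without it, the *Hdac1* difference was -0.33 in MPPs and 0.06 in GMPs, close to the values of *Hdac2*. With the arrays quantile normalized anew, the MPP differences shrank to -0.03 for *Hdac1* and -0.13 for *Hdac2*.

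MTA proteins are the scaffold to which the deacetylases bind. *Mta1* was at 9.06 in *Bcl11a*-/- MPPs and 8.90 in WT MPPs, and at 8.65 in *Bcl11a*-/- GMPs and 8.49 in WT GMPs. Its differences of 0.16 in MPPs and 0.17 in GMPs were almost equal. *Mta2* went the other way, at 8.71 in *Bcl11a*-/- MPPs and 8.84 in WT MPPs, and at 8.67 in *Bcl11a*-/- GMPs and 8.82 in WT GMPs. Its differences were -0.14 in MPPs and -0.15 in GMPs. Under new quantile normalization the MPP values became 0.34 for *Mta1* and -0.01 for *Mta2*. In the deposited values each shift was smaller than 0.28, the SD of the GMP difference over all probe sets.

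*Mbd3* encodes a methyl-CpG-binding domain protein that joins the 2 parts of the complex. Its signal was 7.35 in *Bcl11a*-/- MPPs and 7.23 in WT MPPs, and 7.96 in *Bcl11a*-/- GMPs and 7.62 in WT GMPs. It was the NuRD member with the highest difference in GMPs, 0.34, and 91.0% of all genes lay below it. *Gatad2a*, which encodes the p66-alpha subunit that bridges to the ATPase, was at 8.77 in *Bcl11a*-/- MPPs and 8.69 in WT MPPs, and at 8.35 in *Bcl11a*-/- GMPs and 8.61 in WT GMPs. It had the lowest difference of a NuRD member in GMPs, -0.26, beside 0.08 in MPPs.

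The histone-binding subunits were lower in the mutant cells of both populations. *Rbbp4*, whose product receives the N-terminal peptide of human BCL11A, was at 7.997 in *Bcl11a*-/- MPPs and 8.24 in WT MPPs, and at 7.91 in *Bcl11a*-/- GMPs and 7.98 in WT GMPs. Its differences were -0.24 and -0.07. *Rbbp7* was read by 2 probe sets. The one numbered at the gene, between *Rai2* and *Ctps2*, read 9.75 in *Bcl11a*-/- MPPs and 10.16 in WT MPPs, and 10.12 in *Bcl11a*-/- GMPs and 10.18 in WT GMPs. The other, numbered between *Col4a5* and *Nxt2* elsewhere on the X chromosome, read 10.68 in *Bcl11a*-/- MPPs and 10.96 in WT MPPs, and 10.28 in *Bcl11a*-/- GMPs and 10.61 in WT GMPs. Both were lower in the mutant cells, but the first differed by -0.41 in MPPs and -0.06 in GMPs and the other by -0.28 and -0.32. The mean difference in MPPs was -0.35, which shrank to -0.01 with the arrays quantile normalized anew.

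**Figure D2:**
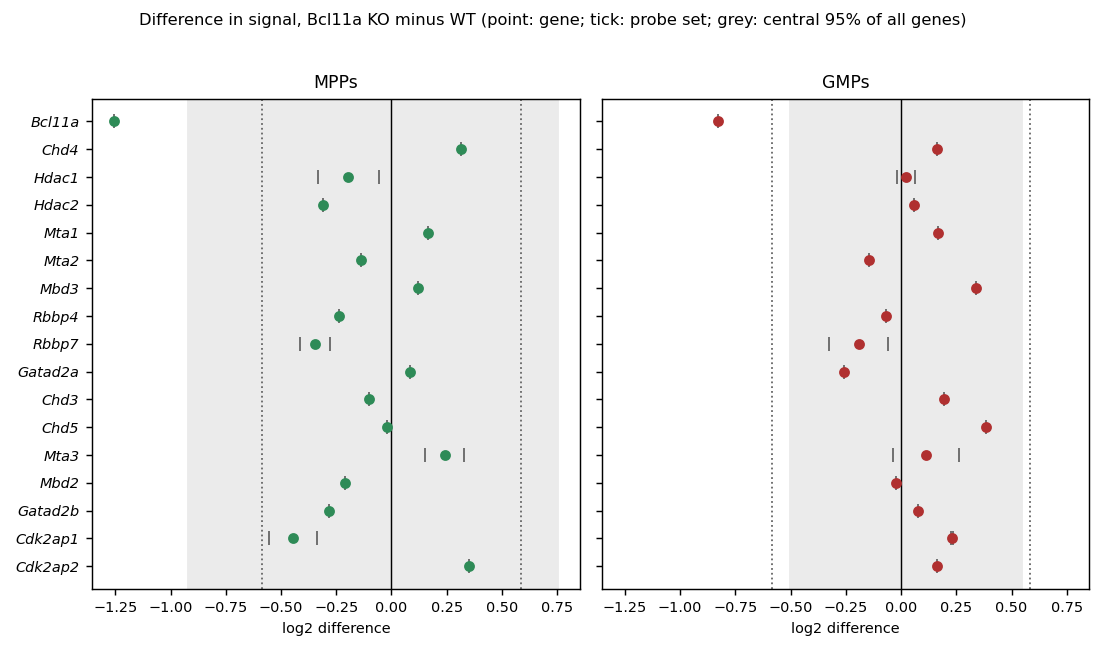
Log2 difference in signal, *Bcl11a*-/- minus WT, for *Bcl11a*, the 9 NuRD members and 7 further NuRD subunits in MPPs and in GMPs. Points are genes, ticks are probe sets, dotted lines mark 1.5-fold and the grey band holds the central 95% of all genes. *Bcl11a* lies outside the band at -1.25 and -0.83, and the 16 other genes lie inside both bands.

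NuRD has alternative subunits at some of its positions, and the array holds 7 further subunits or paralogs. Of these, 0 passed 1.5-fold between *Bcl11a*-/- and WT cells in either population, again near the shares of 12.0% and 3.51% of all genes, with a median of -0.10 in MPPs and 0.16 in GMPs. *Chd3*, an ATPase that can stand in for CHD4, differed by -0.10 in MPPs and 0.20 in GMPs. The p66-beta gene *Gatad2b* differed by -0.28 and 0.08, the MPP value becoming 0.09 under new quantile normalization, and *Mta3* by 0.24 and 0.11. *Mbd2*, whose product takes the place of MBD3, differed by -0.21 and -0.02, and both signs turned under new quantile normalization. The lowest and highest of the list in MPPs were *Cdk2ap1* at -0.45 and *Cdk2ap2* at 0.35, which encode a pair of small accessory subunits. The *Cdk2ap1* value shrank to -0.10 under new quantile normalization. *Bcl11b*, the Bcl11a paralog of T cells, stayed between 5.32 and 5.55 on the 4 arrays and differed by 0.11 in MPPs and -0.03 in GMPs.

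Differences between populations reached further than those between genotypes, for the NuRD members as for all genes. Between MPPs and GMPs, 2 of the 9 NuRD members passed 1.5-fold in *Bcl11a*-/- cells, where 22.7% of all genes did. In WT cells 0 of 9 did, where 14.6% of all genes did. With so few members both counts are near these shares and are not particular to NuRD. *Hdac2* was lower in MPPs, with a difference of -0.71 in *Bcl11a*-/- cells and -0.34 in WT cells. *Mbd3* was lower too, at -0.61 in *Bcl11a*-/- cells and -0.39 in WT cells. Neither passed 1.5-fold when the arrays were centred by a lowess curve, at -0.51 and -0.55, or quantile normalized anew, at -0.36 and -0.48, though both stayed lower in MPPs. Under new quantile normalization *Chd4*, at 0.74, *Mta1*, at 0.70, and *Gatad2a*, at 0.69, passed 1.5-fold instead in *Bcl11a*-/- cells. *Mta1* was higher in MPPs, by 0.41 in both genotypes, and *Gatad2a* was higher by 0.43 in *Bcl11a*-/- cells and 0.08 in WT cells. The remaining members differed by -0.23 to 0.26 between populations.

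Paralogs of the same subunit position differed unequally between MPPs and GMPs, and *Mbd2* and *Mbd3* in opposite directions. *Chd3* had a signal of 7.88 in *Bcl11a*-/- MPPs and 6.97 in *Bcl11a*-/- GMPs, and of 7.98 in WT MPPs and 6.77 in WT GMPs. It was higher in MPPs by 0.91 in *Bcl11a*-/- cells and by 1.21 in WT cells, while *Chd4* was higher by 0.22 and 0.06. *Mbd2* was at 10.43 in *Bcl11a*-/- MPPs and 9.89 in *Bcl11a*-/- GMPs, and at 10.64 in WT MPPs and 9.91 in WT GMPs. Thus *Mbd2* was higher in MPPs by 0.54 in *Bcl11a*-/- cells and 0.73 in WT cells, where *Mbd3* was lower in both. *Mta3* was higher in MPPs by 0.46 in *Bcl11a*-/- cells and by 0.34 in WT cells, *Mta1* by 0.41 in both, and *Mta2* differed by 0.04 and 0.03. The widest gap on the low side was that of *Cdk2ap2*, at 8.15 in *Bcl11a*-/- MPPs and 9.19 in *Bcl11a*-/- GMPs, and at 7.80 in WT MPPs and 9.03 in WT GMPs, differences of -1.04 and -1.23. *Cdk2ap1* differed by -0.74 in *Bcl11a*-/- cells and -0.07 in WT cells, but by -0.09 and 0.24 after new quantile normalization. The directions of *Chd3*, *Mbd2*, *Mbd3*, *Mta1*, *Mta3* and *Cdk2ap2* were the same under every alternative run.

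**Figure D3:**
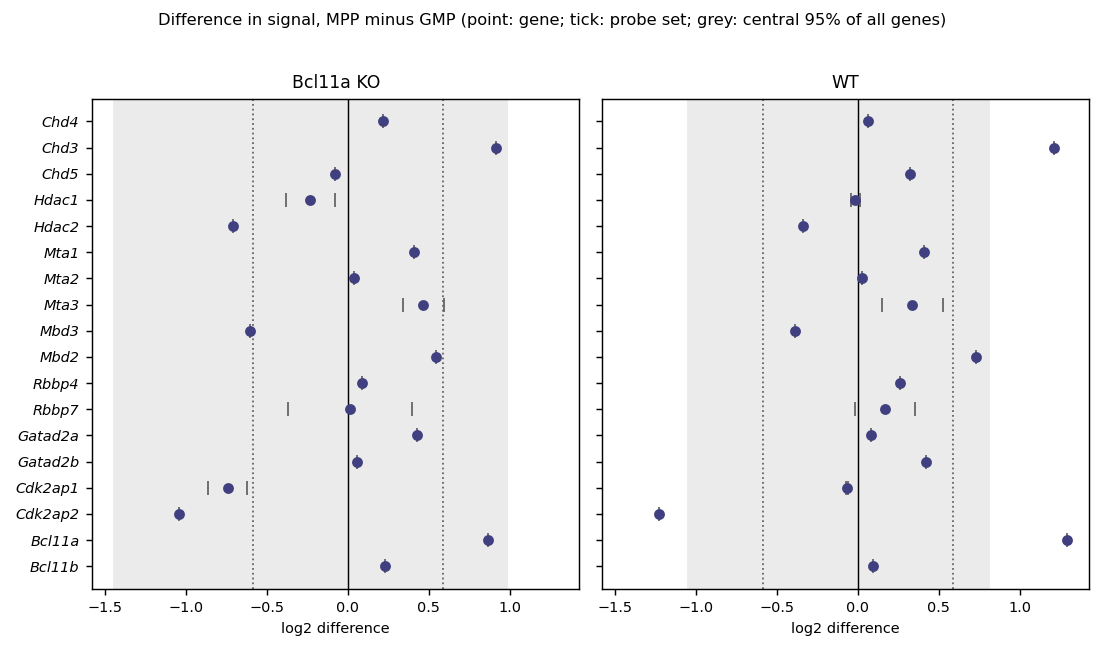
Log2 difference in signal, MPPs minus GMPs, for NuRD subunits grouped by position in the complex and for the BCL11 pair, in *Bcl11a*-/- and in WT cells. Points are genes, ticks are probe sets, dotted lines mark 1.5-fold and the grey band holds the central 95% of all genes. *Chd3* lies to the right at 0.91 and 1.21 and *Cdk2ap2* to the left at -1.04 and -1.23.

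The profiles over the 4 arrays can be set beside each other once each gene is centred on its own mean. By root mean square distance, the closest pair of members was *Rbbp4* and *Rbbp7*, at 0.07 log2 units, followed by *Mta2* with *Rbbp7* at 0.08. *Hdac2* lay nearest to *Mbd3* among members, at 0.18, the pair that was lower in MPPs. *Bcl11a* lay farther from every NuRD member, from 0.63 for *Rbbp7* to 1.01 for *Mbd3*.

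Of 10152 genes with a signal of at least 6 on an array, the 5 nearest to *Bcl11a* were *Myl10*, *Tnfrsf13c*, *Akap12*, *Il6st* and *Tcf4*, at distances of 0.11, 0.16, 0.16, 0.19 and 0.19. *Tnfrsf13c* encodes the BAFF receptor of B cells, *Il6st* the gp130 chain shared by IL-6 family receptors, and *Tcf4* the E protein E2-2 of plasmacytoid dendritic and B cells. *Myl10* encodes a myosin light chain and *Akap12* a scaffold for protein kinase A. *Myl10* was at 6.25 in *Bcl11a*-/- MPPs and 7.27 in WT MPPs, and at 5.24 in *Bcl11a*-/- GMPs and 5.91 in WT GMPs. *Tnfrsf13c* was at 6.96 in *Bcl11a*-/- MPPs and 8.16 in WT MPPs, and at 6.42 in *Bcl11a*-/- GMPs and 6.88 in WT GMPs. *Tcf4* was at 7.83 in *Bcl11a*-/- MPPs and 8.72 in WT MPPs, and at 6.99 in *Bcl11a*-/- GMPs and 7.43 in WT GMPs. These 5 genes were thus highest in WT MPPs and lowest in *Bcl11a*-/- GMPs, as *Bcl11a* was, over 4 points that include the genotype difference itself. The NuRD members, whose profiles were flatter, each had a nearest gene within 0.02: *Gm10142* for *Chd4*, *Rpl6* for *Hdac1*, *Gpr108* for *Hdac2*, *Srcap* for *Mta1*, *Syne3* for *Mta2*, *Alg12* for *Mbd3*, *Prm3* for *Rbbp4*, *Slc25a51* for *Rbbp7* and *Nbeal2* for *Gatad2a*. Each of these distances rests on 4 points.

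**Figure D4:**
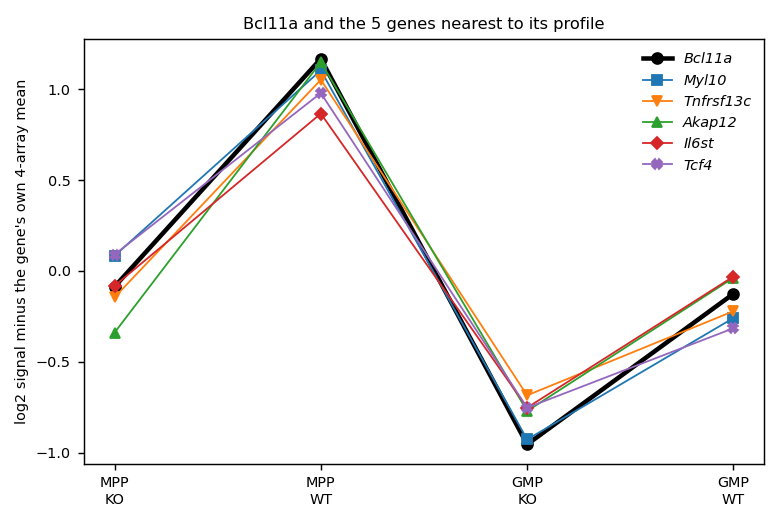
Log2 signal minus the gene's own mean over the 4 arrays, for *Bcl11a* (black) and the 5 genes nearest to it. The lines join the 4 arrays only to show the pattern, which is highest in WT MPPs and lowest in *Bcl11a*-/- GMPs for each of the 6 genes.

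Some factors that recruit NuRD differed past 1.5-fold. Of 13 BCL11 family and NuRD-recruiting zinc finger factors, 3 passed 1.5-fold in MPPs and 2 in GMPs, beside 12.0% and 3.51% of all genes. *Zfpm1*, which encodes FOG1, a GATA1 cofactor that binds NuRD through an N-terminal motif like that of BCL11A, was at 8.19 in *Bcl11a*-/- MPPs and 7.36 in WT MPPs, and at 7.50 in *Bcl11a*-/- GMPs and 6.53 in WT GMPs. It was thus higher in the mutant cells of both populations, 1.77-fold and 1.96-fold. *Ikzf2*, the Helios gene, was at 8.47 in *Bcl11a*-/- MPPs and 7.57 in WT MPPs, 1.86-fold higher, and differed by 0.32 in GMPs. *Ikzf3*, the Aiolos gene of maturing B cells, was at 4.79 in *Bcl11a*-/- MPPs and 6.01 in WT MPPs, and at 4.50 in *Bcl11a*-/- GMPs and 5.21 in WT GMPs. Its mutant signals were below 5, and with a floor there its differences were -1.01 in MPPs and -0.21 in GMPs. The fall of *Ikzf3* stood beside that of the B lineage markers and the higher *Zfpm1* beside higher erythroid markers, and the part of these cells in either was not tested.

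Factors reported to bind BCL11A were mostly within 1.5-fold. Of 13 such genes, 2 passed 1.5-fold in MPPs and 1 in GMPs, counts near the shares of all genes. *Sox6*, which acts with BCL11A on globin genes, was at 6.10 in *Bcl11a*-/- MPPs and 5.43 in WT MPPs, 1.60-fold higher. The orphan receptor gene *Nr2c1* was at 5.56 in *Bcl11a*-/- MPPs and 6.14 in WT MPPs, a difference of -0.59 that was just past 1.5-fold. *Gata1*, the erythroid master regulator, was at 7.47 in *Bcl11a*-/- GMPs and 6.44 in WT GMPs, 2.04-fold higher, with the erythroid markers, of which it is one.

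Genes of other corepressor and chromatin complexes, some of which share subunits with NuRD, were mostly within 1.5-fold. SIN3 complexes also hold HDAC1, HDAC2, RBBP4 and RBBP7, and of 14 SIN3 genes 3 fell past 1.5-fold in mutant MPPs, *Ing2* at -0.69, *Sap30l* at -0.67 and *Sinhcaf* at -0.63, the last of which was -0.47 after new quantile normalization. Of all 19938 genes 1368 fell past 1.5-fold there, and of 3109 abundant genes 567 did. The SIN3 count is nearer the share of abundant genes, but some SIN3 genes are not in that set. *Sap30l*, with a mean signal of 7.34, is one of them. The SIN3 median was -0.25 in MPPs, with 11 of 14 genes lower, beside the median of -0.16 for abundant genes, and -0.09 in GMPs, where 0 of 14 passed 1.5-fold. CoREST, built around the demethylase KDM1A and the same deacetylases, had 1 of 9 measured genes past 1.5-fold in MPPs, close to the 12.0% of all genes. It was *Gse1*, at 8.73 in *Bcl11a*-/- cells and 7.92 in WT cells, 1.75-fold higher. The CoREST median was 0.20 in MPPs and 0.05 in GMPs. In the NCoR, PRC2 and SWI/SNF lists, in the other histone deacetylases and in the other complexes of RBBP4 or RBBP7, 0 genes passed 1.5-fold in either population, beside 12.0% and 3.51% of all genes. This count changed under alternatives, since *Arid1a* reached 0.86 in MPPs with new quantile normalization, *Gps2* -0.60 in MPPs with median centring and *Hdac4* -0.66 in GMPs on its brightest probe set. The lowest and highest differences in MPPs were *Gps2* at -0.55 and *Hdac3* at 0.12 in NCoR, *Ezh2* at -0.38 and *Phf1* at 0.37 in PRC2, and *Smarcd2* and *Arid1a* at -0.49 and 0.49 in SWI/SNF. Among other deacetylases they were *Hdac10* at -0.33 and *Hdac11* at 0.16, and among RBBP4 or RBBP7 complexes *Hat1* at -0.51 and *Lin54* at 0.38.

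**Figure D5:**
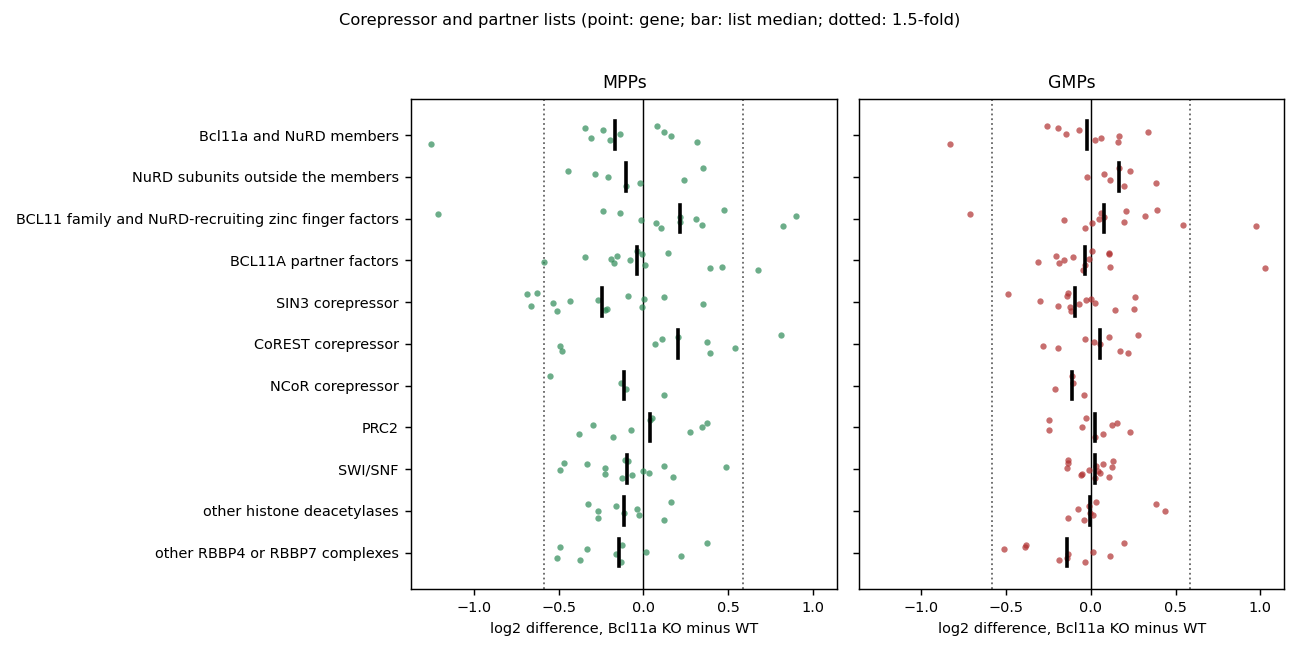
Log2 difference in signal, *Bcl11a*-/- minus WT, for the genes of 11 lists in MPPs and in GMPs, with 1 point per gene, a bar at each list's median and dotted lines at 1.5-fold. NuRD genes other than *Bcl11a* lie between the dotted lines, and the points past them belong to *Bcl11a*, the zinc finger factors, the BCL11A partners, SIN3 and CoREST.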

How the data were processed

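MPPs and GMPs were profiled on 4 one-color gene arrays, 1 per population and genotype. From amplified, biotin-labeled RNA the authors deposited log2 values, 1 per probe set and array, made by RMA with quantile normalization in ArrayStar (no version in the sources used here). RMA fixes background correction and probe summary, and it can hide a change in total mRNA per cell. Precision is limited by having 1 array per group.

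Of 30177 rows, 1324 unannotated rows with the lowest numbers were set aside as controls, leaving 28853 probe sets: 21789 with 1 gene symbol, 1621 with several and 5443 unnamed here. Symbols came from the platform annotation, checked through Entrez identifiers against RefSeq (GRCm38.p6), and probe sets carrying one gene's symbol alone were averaged. Differences were counted past 1.5-fold and 2-fold without a test, using Python 3.11.15, pandas 2.3.3, numpy 2.4.6 and statsmodels 0.14.6. Simulated arrays with known shifts were used to check 2-fold calls after lowess centring. They did not check the uncentred 1.5-fold counts given here. Named were every member, its paralogs, list genes past 1.5-fold or else the lowest and highest of a list, and the genes nearest in profile. A rule on an N-terminal protein motif was not applied, since protein sequences were not used here. The members and the 11 lists were chosen with earlier results of these data known. Alternatives were a floor at 5, a filter at 6, median, lowess (span 0.3) and quantile scaling, the brightest probe set, and probe sets with several symbols. Leaving out probe sets numbered away from their gene was added after seeing the data.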

Additional observations from a re-analysis of the deposited data

Results flagged for a closer look

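Among members and further NuRD subunits, 7 genes differed between *Bcl11a*-/- and WT cells in one direction in MPPs and in the other in GMPs. The difference between the populations was not tested for any of them, since each rests on 4 arrays. *Hdac2* had -0.31 in MPPs and 0.06 in GMPs, a gap of -0.37. For *Hdac1* the values were -0.19 and 0.02 as the mean of its 2 probe sets, a gap of -0.22. Its flat probe set, whose target is uncertain, was lower in both populations, at -0.06 and -0.02. *Gatad2a* ran the other way, at 0.08 and -0.26, a gap of 0.34. The ATPase genes *Chd3* and *Chd5* had gaps of -0.30 and -0.40, from -0.10 and -0.02 in MPPs and 0.20 and 0.38 in GMPs. *Gatad2b* had -0.28 and 0.08, a gap of -0.36, and its MPP value changed sign under new quantile normalization. The widest gap, -0.68, was that of *Cdk2ap1*, at -0.45 and 0.23, and 1 of its 2 probe sets is numbered among genes of another chromosome. Under new quantile normalization its MPP value was -0.10, which narrows that gap.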

How the results depend on the processing

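Of 314 values recomputed under alternatives, 296 were log2 differences or their medians and the others were counts of members. By the rule used, 300 of the 314 stayed the same. A difference stayed if it was within 0.28 log2 units, the SD of the GMP difference over all probe sets, and on the same side of 1.5-fold. A count stayed if it was unchanged. A further 14 moved, and 0 of the values past 1.5-fold changed sign. The count of NuRD members past 1.5-fold in MPPs was 1 in place of 0 with the arrays quantile normalized anew, through *Chd4*. That scaling gave 10 of the 14 values that moved, mostly differences between *Bcl11a*-/- MPPs and *Bcl11a*-/- GMPs, and the cause was not tested. The NuRD median ran from -0.18 to -0.01 in MPPs and from 0.01 to 0.06 in GMPs. Signs changed in 7 member differences (11 values), the largest of them -0.23, for *Hdac1* between *Bcl11a*-/- MPPs and GMPs. *Rbbp7* between the same arrays was 0.01 as the mean of its probe sets, 0.40 on the brightest and -0.37 on the one numbered at the gene. Centring on the median or by lowess moved the median of all genes in that comparison by -0.11 each, so its small differences have no settled sign. Low signals limit *Bcl11b*, *Ikzf3* and *Chd5*, and also *Sox6* and *Nr2c1*, whose signals in MPPs were between 5.43 and 6.14. No paired analysis was possible because each group has 1 array and no test was run.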

Other observations

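Some other corepressor genes differed between the populations. *Brms1*, a SIN3 subunit gene, was lower in MPPs than in GMPs, at -1.32 in *Bcl11a*-/- cells and -1.19 in WT cells. *Hdac3*, the deacetylase of NCoR, was lower in MPPs, at -0.69 in *Bcl11a*-/- cells and -0.85 in WT cells. Both stayed lower by more than 1.5-fold under every alternative run. Over the lists outside the members, 23 of 101 measured genes passed 1.5-fold in *Bcl11a*-/- cells, beside 22.7% of all genes, and 20 in WT cells, beside 14.6%, so the lists as a whole are not set apart.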
